A study of Mus musculus with 24 samples.

Results

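The 435 sites described here were bound by YAP in tet-YAP liver and were without a YAP peak in tet-Myc/YAP liver, in which Myc was induced as well. They were selected on the YAP peak lists themselves: a site was a YAP peak of tet-YAP with no tet-Myc/YAP YAP peak overlapping it by 1 bp, and it overlapped at least 1 region of H3K4me3, H3K27ac or H3K4me1 called in wild-type liver. Of the 1328 YAP peaks of tet-YAP, 703 had no counterpart among the 11719 YAP peaks of tet-Myc/YAP (52.9%), and 435 of these 703 lay in a wild-type marked region. The other 268 lay in none. The set used for comparison was the 583 YAP peaks of tet-YAP that did overlap a tet-Myc/YAP YAP peak and also lay in a wild-type marked region. The 435 are called lost sites and the 583 kept sites below. "Lost" describes the peak lists, since a site without a called peak can still hold YAP below the calling cutoff.

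The libraries were made from whole livers of mice carrying R26-rtTA, the doxycycline-dependent activator driven from the Rosa26 locus. Which liver cells were induced was not measured in these data. The 4 genotypes were wild-type (R26-rtTA with no inducible transgene), tet-Myc, tet-YAP and the double transgenic tet-Myc/YAP. The transgenic libraries are labelled as induced for 2 days, the labels of the wild-type libraries give no induction time, and the YAP transgene encoded the activated S127A mutant. Whether animals were pooled for a library, and their age, were not given in the labels or methods. Each antibody and genotype was 1 library, so no difference between genotypes could be tested and no p-value is given. The intervals below are 95% Wilson intervals, or Newcombe intervals for differences, which cover the counting of sites only and not the spread between animals.

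YAP is the transcriptional coactivator restrained by the Hippo pathway. It does not bind DNA directly and is brought to chromatin mainly by the TEAD factors, which in liver, as in other tissues, sit at both promoters and enhancers of genes for growth and cell architecture. Myc binds E-box DNA with its partner Max, preferentially in chromatin that is already active. H3K4me3 marks active promoters, H3K4me1 marks enhancers and promoter flanks, and H3K27ac marks active elements of both kinds. Positions are given on the mm9 build. No annotation or sequence of that build was used here, so sites are described by their marks and not by genes.

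The YAP calls at lost sites were narrow and of moderate height. Their median width was 81 bp (range 56 to 326), against 120 bp at kept sites. The median pileup, the number of overlapping fragments at the summit, was 11 at lost and 12 at kept sites, the median fold enrichment over control was 14.3 and 14.6, and the median −log10 q was 5.13 and 5.83. The lost sites were thus close to the kept ones in enrichment, while the highest pileups differed, at 58 and 91. These values chose the sites in part and are given as a description.

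The YAP lists were not made under equal conditions. The tet-YAP library had 25.2 M tags, a control of 25.2 M and an estimated fragment of 56 bp. The tet-Myc/YAP library had 17.4 M tags, a control of 167.0 M and a fragment of 364 bp, and its peaks had medians of 548 bp in width and 24 in pileup, with no pileup under 15. Because the fragment lengths differ, pileups of the tet-YAP and tet-Myc/YAP lists are not on one scale. The part of these library differences in the loss of sites was not tested. The share of marked sites lost was 53.6% at a tet-YAP pileup of 7 to 10, 44.7% at 11 to 12, 46.6% at 13 to 14 and 22.8% at 15 to 91 (54 of 237 sites). These pileups come from the list that chose the sites and are given as a description.

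The rule was a threshold on overlap, and sites on either side of it could lie a few bases apart. The lost sites nearest to a tet-Myc/YAP YAP peak were on chromosome 7 from 90780870 to 90780936, 1 bp away, on chromosome 9 from 102545938 to 102545993, 9 bp away, and on chromosome 9 from 43029809 to 43029901, 13 bp away. Just outside the rule were promoter-like sites on chromosome 1 from 191551486 to 191551558, chromosome 4 from 148541622 to 148541694 and chromosome 5 from 138051878 to 138051933. They overlapped a tet-Myc/YAP YAP peak by 1, 16 and 23 bp.

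By their wild-type marks, 194 of the 435 lost sites were promoter-like (44.6%), meaning that they overlapped an H3K4me3 region, and 241 were distal (55.4%), with H3K27ac or H3K4me1 but no H3K4me3. Among kept sites 70.5% were promoter-like. Put the other way, 32.1% of the promoter-like YAP peaks of tet-YAP were lost (194 of 605, interval 28.5 to 35.9%), 56.9% of the distal peaks with H3K27ac (209 of 367, 51.8 to 61.9%) and 69.6% of those with H3K4me1 alone (32 of 46, 55.2 to 80.9%). Of the peaks with none of the 3 marks, which are outside the set, 86.5% were lost. Loss was thus least frequent at promoter-like peaks and most frequent at unmarked ones. The commonest combinations at lost sites were all 3 marks together (142 sites) and H3K27ac with H3K4me1 (142 sites). H3K27ac alone was found at 67, H3K4me1 alone at 32, H3K4me3 with H3K27ac at 28, H3K4me3 alone at 21 and H3K4me3 with H3K4me1 at 3.

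TEAD, the DNA-binding partner, was called at most lost sites in every genotype, with or without YAP. A TEAD peak overlapped 82.5% of lost sites in wild-type liver, 83% with tet-Myc, 81.6% with tet-YAP and 84.4% with tet-Myc/YAP. The same shares over all 1328 YAP peaks of tet-YAP were 85.3%, 87.7%, 85.7% and 88.4%, and among kept sites 99.5%, 99.1%, 99% and 99.7%. The share of lost sites with TEAD was thus close to that of all YAP peaks and below that of kept sites, by 15.3 points in tet-Myc/YAP (interval 12.1 to 19). Of the 355 lost sites with a TEAD peak in tet-YAP, 338 also had one in tet-Myc/YAP (95.2%), where no YAP peak was called on them. TEAD was called in all 4 genotypes at 314 lost sites (72.2%, against 574, or 98.5%, of kept sites) and in none at 40 (9.2%, against 0 of 583 kept sites, with an upper Wilson bound of 0.655%).

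The strength of TEAD differed between lost and kept sites as well. Fold enrichments of different libraries are not on one scale, so each TEAD peak was given its percentile within its own list. At lost sites with a peak, the median percentile was 83.8 in wild-type liver, 87.8 with tet-Myc, 82.5 with tet-YAP and 81.1 with tet-Myc/YAP. At kept sites it was 97.6, 97.6, 97.7 and 97.7. TEAD at lost sites was therefore above the middle of each list, but below that at kept sites in all 4 genotypes, wild-type included. In the list's top 10% stood 35.9% of the wild-type TEAD peaks at lost sites and 80.2% of those at kept sites. The TEAD summit lay a median of 56 bp from the YAP summit at lost sites and 53 bp at kept sites in tet-YAP, so the calls were centred alike on both sets.

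**Figure D1:**
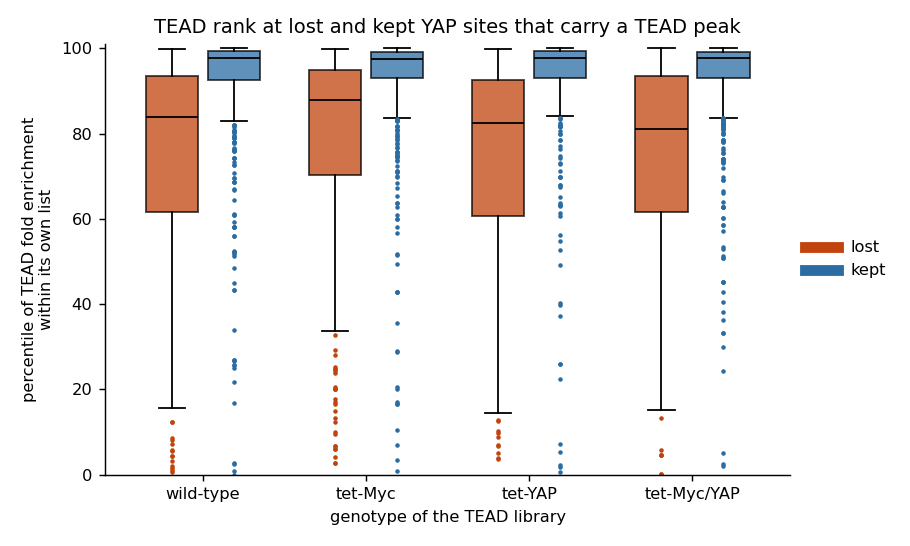
Percentile of TEAD fold enrichment within its own list (vertical axis) at the lost (red) and kept (blue) YAP sites that carried a TEAD peak, by genotype of the TEAD library. Boxes span the quartiles with the median as a line, whiskers reach at most 1.5 times the height of the box beyond it, and points are sites farther out. Medians at lost sites lay between 81.1 and 87.8 and at kept sites between 97.6 and 97.7.

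The TEAD rank was also compared between tet-YAP and tet-Myc/YAP. Over the 338 lost sites with TEAD in both, the median change was 0.37 percentile points (quartiles −5.78 and 8.64). The rank was lower by 10 points or more at 68 sites (20.1%) and higher by as much at 76 (22.5%). Over the 29963 tet-YAP TEAD peaks found in both lists, the median change was 8.97 points, and 15.4% were lower and 48.2% higher. The tet-Myc/YAP list was longer (52392 against 32486 peaks), which bears on every percentile in it, and its part in this background was not tested. At the 577 kept sites with TEAD in both, 6.59% were lower and 4.85% higher. Losses and gains of TEAD rank were about equally frequent at lost sites. Both sets started high in the tet-YAP list, at medians of 82.5 and 97.7, and so had less room to rise than most TEAD peaks. In that list's top 10%, where a rise above 10 points is not possible, stood 31.5% of TEAD peaks at lost and 84.7% at kept sites. A fall of 10 points was also a larger change in fold near the top of that list. Folds of 19.24 and 10.99 stood at percentiles of 97.51 and 87.42 in it, and folds of 9.88 and 7.93 at 83.59 and 71.46. The shares of gains and of losses in the lost and kept sets therefore cannot be compared.

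Sorted by TEAD strength, the marked YAP peaks of tet-YAP went from mostly lost to mostly kept. With tet-YAP TEAD peaks divided into quartiles of fold enrichment, 79.7% of sites were lost in the lowest (3.2 to 9.82; 188 of 236), 44.9% in the next (9.85 to 15.1), 20.9% in the third (15.3 to 23.4) and 6.03% in the highest (23.5 to 63.8; 14 of 232). Of the sites with no tet-YAP TEAD peak, 93% were lost (80 of 86). The order was the same among promoter-like sites, from 70.6% to 3.18%, and among distal sites, from 90% to 12%. It was also the same with TEAD of wild-type liver, which carried neither transgene: the share lost was 69.5%, 53.4%, 21.8% and 8.09% over its quartiles, and 96.2% without a wild-type TEAD peak (76 of 79).

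Several lost sites had strong TEAD nonetheless. The highest tet-YAP TEAD enrichment at a lost site was on chromosome 1 from 135592626 to 135592845, a distal H3K27ac site. Its TEAD fold enrichment was 17.33 in wild-type liver, 31.21 with tet-Myc, 44.57 with tet-YAP and 91.84 with tet-Myc/YAP. These folds, like those of the named sites below, are not on one scale across libraries. The TEAD percentiles in the same order were 98.53, 98.47, 99.9 and 99.98. Myc was called there in tet-Myc/YAP at 12.26-fold. The nearest tet-Myc/YAP YAP peak was 1224 bp away. This site thus had TEAD near the top of the list in the library of the genotype without its YAP peak. The distal site on chromosome 4 from 106532180 to 106532324 had TEAD at 8.77, 19.87, 41.03 and 85.25-fold in the same order. Its percentiles were 84.69, 94.82, 99.85 and 99.95. It had no Myc in any list and RNA polymerase II in tet-Myc/YAP alone, at 5.12-fold. The promoter-like site on chromosome 8 from 46711841 to 46712040 had TEAD at 25.83, 57.0, 33.03 and 63.89-fold, at percentiles of 99.63, 99.83, 99.66 and 99.71. It had H3K27ac, H3K4me3 and RNA polymerase II in all 4 genotypes, and no Myc. A tet-Myc/YAP YAP peak lay 912 bp from it. Neighbouring distal lost sites on chromosome 17, from 63763453 to 63763571 and from 63763633 to 63763765, shared 1 TEAD peak of 20.99, 37.33, 32.64 and 35.56-fold. That peak ranked at percentiles of 99.22, 99.11, 99.65 and 97.39. The sites had neither Myc nor RNA polymerase II. Their H3K27ac was called in the other 3 genotypes but not in tet-Myc/YAP.

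At the 40 lost sites with no TEAD peak in any genotype, 15 were promoter-like and 25 distal. Their YAP calls were narrower than those of the lost sites in general, with a median width of 62.5 bp, while the median pileup was 12.5 and the median fold enrichment 17.2. H3K27ac was called at 33 of them in wild-type and 25 in tet-Myc/YAP, and RNA polymerase II at 6 and 9. These were therefore marked sites with a narrow YAP call and no called partner.

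**Figure D2:**
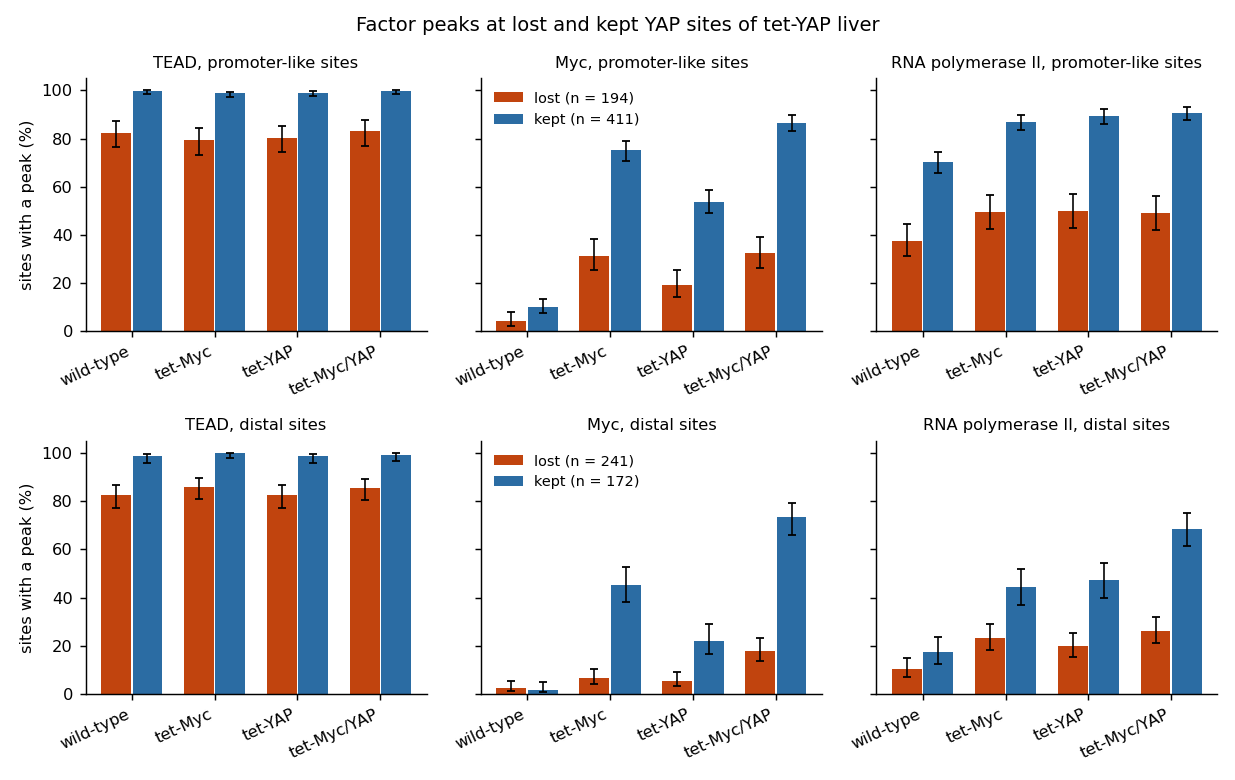
Share of lost (red) and kept (blue) YAP sites of tet-YAP that overlapped a TEAD, Myc or RNA polymerase II peak (vertical axis, percent) in each genotype (horizontal axis), for promoter-like sites above and distal sites below. Bars are 1 library each and whiskers are 95% Wilson intervals that cover the counting of sites only. In tet-Myc/YAP, Myc was called at 32.5% of lost and 86.6% of kept promoter-like sites.

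Myc was scarce at lost sites, also where it had been induced. A Myc peak overlapped 3.22% of them in wild-type liver (14 sites), 17.7% with tet-Myc (77), 11.5% with tet-YAP (50) and 24.4% with tet-Myc/YAP (106). Over all YAP peaks of tet-YAP the shares were 4.44%, 35.2%, 23.5% and 47.1%, and at kept sites 7.72%, 66.4%, 44.4% and 82.7%. In the 3 transgenic genotypes the lost sites were thus below the background share and the kept sites above it. The difference between kept and lost sites in tet-Myc/YAP was 58.3 points (interval 52.9 to 63.1). With that Myc list cut to its 4775 most significant peaks, the length of the wild-type list, Myc was called at 3.45% of lost and 23% of kept sites, so the size of the gap depended on the length of the list. With the whole list it was 54.1 points among promoter-like sites (32.5% of lost against 86.6% of kept) and 55.4 points among distal sites (17.8% against 73.3%), so it was nearly as large within either class. No Myc peak was called in any of the 4 genotypes at 303 lost sites (69.7%), against 88 kept sites (15.1%).

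The gap was also present in the Myc libraries of tet-Myc and tet-YAP. No Myc library was part of the rule. In tet-Myc liver, in which YAP was not induced, the difference was 48.7 points (43.2 to 53.6). In tet-YAP liver, in which these sites had their YAP peak and Myc was not induced, it was 32.9 points (27.7 to 37.8). Where Myc was called in tet-Myc/YAP, its median percentile within the list was 51.8 at lost and 69.6 at kept sites. These pooled values mix classes, since 43 of the 106 lost and 126 of the 482 kept sites were distal. Among promoter-like sites the medians were 66.2 and 73.8, and among distal sites 35.4 and 53.6. Median folds at the distal sites were 8.32 and 10.9. In the tet-Myc and tet-YAP lists lost sites also ranked lower, at 55.8 against 72.9 and 57.4 against 63.2. The wild-type list had the reverse order, at 70.1 for 14 lost and 50.8 for 45 kept sites.

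Read from the Myc side, 18% of marked YAP peaks with a tet-Myc/YAP Myc peak were lost (106 of 588) and 76.5% of those without (329 of 430). In promoter-like sites these shares were 15% and 70.4%, and in distal sites 25.4% and 81.1%. With the Myc list of tet-Myc in place of that of tet-Myc/YAP they were 16.6% and 64.6%. The lost sites were thus mainly those at which no Myc peak was called.

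TEAD and Myc were each associated with the loss when the other was held within a range. In the lowest quartile of tet-YAP TEAD, 59% of sites with Myc and 89.9% of sites without were lost. In the second quartile the shares were 21.4% and 72.2%, in the third 13.3% and 43.9%, and in the highest 2.46% (5 of 203) and 31% (9 of 29). With wild-type TEAD the shares with Myc ran from 44.8% to 4.02% and those without from 86.4% to 30.6%. Sites with Myc were lost less often than sites without it in all 8 pairs, and within each of these series the share fell as TEAD rose.

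**Figure D3:**
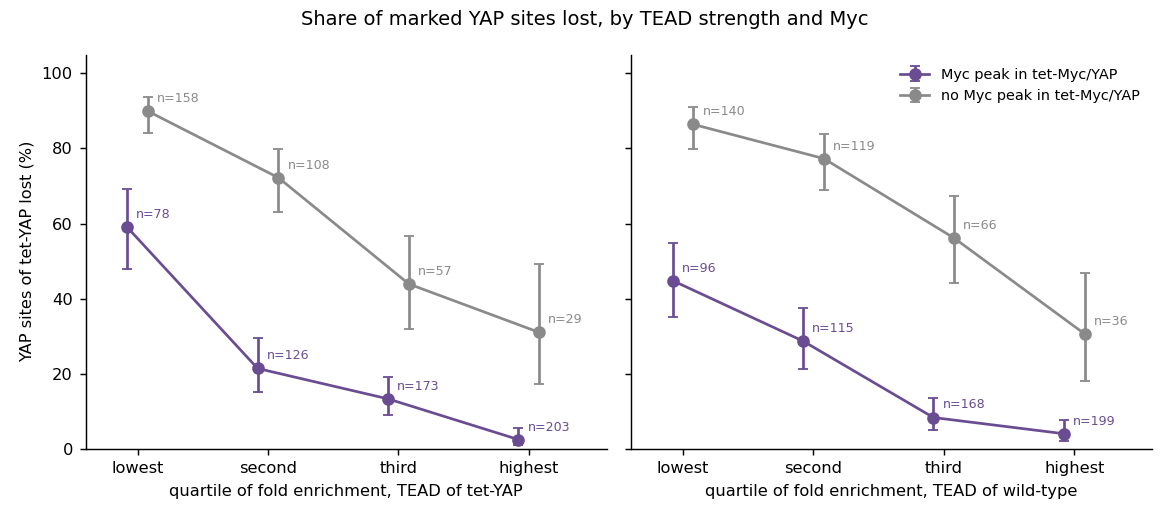
Share of marked YAP peaks of tet-YAP that were lost (vertical axis, percent) by quartile of TEAD fold enrichment in tet-YAP (left) and wild-type (right), for sites with (purple) and without (grey) a tet-Myc/YAP Myc peak. Whiskers are 95% Wilson intervals over sites and n is the number of sites. With tet-YAP TEAD the share fell from 59% to 2.46% with Myc and from 89.9% to 31% without.

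The 106 lost sites at which Myc was called in tet-Myc/YAP differed from the other 329 in several ways. They were more often promoter-like (59.4% against 39.8%), and more often had RNA polymerase II in tet-Myc/YAP (77.4% against 23.1%) and already in wild-type (50% against 13.7%). Their median TEAD percentile in tet-Myc/YAP was 89.8, against 77.9 where Myc was not called. They also lay nearer to a remaining YAP peak, at a median of 4035 bp against 23616 bp. The lost sites with Myc thus more often carried the other factors as well.

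The highest Myc enrichment at lost sites was at promoter-like sites close to a YAP peak that tet-Myc/YAP did have. The site on chromosome 17 from 27772676 to 27772756 had Myc at 40.06-fold in tet-Myc and 55.5-fold in tet-Myc/YAP, and none in wild-type or tet-YAP. Within their lists these peaks ranked at percentiles of 99.3 and 98.75. The site was 55 bp from a tet-Myc/YAP YAP peak, and the nearest tet-Myc/YAP Myc summit lay 741 bp from its own summit. The site on chromosome 10 from 79614083 to 79614140 had Myc at 18.0-fold in tet-Myc, 8.97-fold with tet-YAP and 46.84-fold with tet-Myc/YAP. Its Myc percentiles were 89.93, 82.79 and 97.8, though the nearest tet-Myc/YAP Myc summit lay 2576 bp away. The one on chromosome 14 from 54980149 to 54980220 had Myc at 33.2, 10.67 and 41.91-fold in the same order, at percentiles of 98.33, 89.05 and 96.98. Its nearest tet-Myc/YAP Myc summit was 562 bp away. These sites were 108 and 258 bp from a tet-Myc/YAP YAP peak. At these 3 sites YAP was thus called in the same marked region, beside the interval of tet-YAP.

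Of the 5 promoter-like lost sites with the most significant YAP calls, 2 had no Myc peak in any genotype and 1 had one in tet-Myc/YAP. The site on chromosome 7 from 34918325 to 34918650 had a YAP fold enrichment of 31.8. Its TEAD was at 14.56-fold in wild-type liver, 16.86 with tet-Myc, 12.17 with tet-YAP and 22.96 with tet-Myc/YAP. The TEAD percentiles were 97.28, 92.32, 90.59 and 92.52, and neither Myc nor RNA polymerase II was called in any list. The nearest tet-Myc/YAP YAP peak was 34278 bp away. The site on chromosome 13 from 41447715 to 41447987 had TEAD at 12.98, 25.49, 19.04 and 39.27-fold, also without Myc or RNA polymerase II. Its TEAD percentiles were 95.87, 97.27, 97.42 and 98.01. Its H3K4me3 was called in wild-type but in none of the other 3 genotypes, while H3K27ac was called in all 4. The site on chromosome 6 from 47728189 to 47728259 had Myc at 45.74-fold in wild-type, with its summit on the YAP summit, and none in the other genotypes. The wild-type TEAD summit also lay 0 bp from the YAP summit there, and the wild-type polymerase summit 2 bp. Whether these coinciding summits reflect binding was not tested. The other 2 of this group, on chromosome 1 from 163898852 to 163898951 and chromosome 10 from 105010227 to 105010300, lay 412 and 42 bp from a tet-Myc/YAP YAP peak. The first had Myc in tet-YAP at 4.38-fold and in tet-Myc/YAP at 8.32-fold, the other in tet-YAP alone, at 6.56-fold.

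Among distal lost sites with the most significant YAP calls, the site on chromosome 10 from 53044406 to 53044676 had no Myc and had RNA polymerase II in all 4 genotypes, at 8.08, 4.53, 4.89 and 4.7-fold. The site on chromosome 10 from 98635618 to 98635808 had TEAD at 13.83, 11.3, 6.6 and 9.54-fold, at percentiles of 96.65, 80.83, 55.52 and 63.17. It had neither Myc nor RNA polymerase II, and lay 216 bp from a tet-Myc/YAP YAP peak. A pair on chromosome 5, from 37052084 to 37052148 and from 37052215 to 37052296, lay inside 1 group of 3 lost sites that spanned 604 bp. The pair shared 1 TEAD peak of 6.41, 3.92, 6.78 and 4.28-fold, which ranked at percentiles of 61.74, 2.7, 58.42 and 4.71. Myc was called at the pair in wild-type, at 19.5 and 27-fold, and in 1 shared peak each of tet-YAP (16.31-fold) and tet-Myc/YAP (9.55-fold), but not in tet-Myc. RNA polymerase II was called there in all 4 genotypes, at 10.33, 7.84, 9.84 and 5.76-fold. Sites this close are not independent of each other. At the second site of the pair, TEAD summits lay 2, 2, 3 and 2 bp from the YAP summit. The wild-type Myc summit lay 1 bp from it, and the polymerase summits 3, 1, 2 and 1 bp. Over all lost sites the median polymerase distances were 282, 350, 262 and 216 bp. Whether these coinciding summits reflect binding was not tested.

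RNA polymerase II, a sign of transcription at or near a site, was called at 22.5% of lost sites in wild-type liver, 34.9% with tet-Myc, 33.3% with tet-YAP and 36.3% with tet-Myc/YAP. The shares over all YAP peaks of tet-YAP were 31.6%, 44.6%, 45.4% and 50.6%, and those at kept sites 54.7%, 74.4%, 77% and 84.2%. Depth differed between these libraries, at 20.9, 50.6, 37.7 and 45.8 M tags, so a rise over wild-type cannot be told apart from depth. Within each library, lost sites were below the background share and kept sites above it. The wild-type gap was 32.2 points (interval 26.4 to 37.6). With tet-Myc it was 39.5 points (33.6 to 45), with tet-YAP 43.7 points (37.9 to 49) and with tet-Myc/YAP 47.9 points (42.3 to 53.1). The wild-type library was also the shallowest, and the part of depth in the size of the gap was not tested. No polymerase peak was called in any genotype at 229 lost sites (52.6%) and at 63 kept sites (10.8%).

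Among distal sites, polymerase was called at 10.4% of lost and 17.4% of kept sites in wild-type, and at 26.1% and 68.6% in tet-Myc/YAP. The difference was thus 7.07 points (0.39 to 14.2) in wild-type and 42.5 points (33.1 to 50.7) in tet-Myc/YAP, with 20.9 points in tet-Myc and 27.2 in tet-YAP between them. Among promoter-like sites the difference was 32.7 points in wild-type and 41.8 points in tet-Myc/YAP. Of the 145 lost sites with polymerase in tet-YAP, 116 had it in tet-Myc/YAP as well (80%), against 430 of 449 kept sites (95.8%).

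H3K27ac persisted at most lost sites. It overlapped 87.1% of them in wild-type liver, where it was part of the rule, 85.1% with tet-Myc, 86.7% with tet-YAP and 84.6% with tet-Myc/YAP. Over all YAP peaks of tet-YAP, 268 unmarked lost peaks included, the shares were 70.6%, 73.5%, 76.8% and 77.2%, and at kept sites 95.7%, 96.9%, 98.6% and 98.1%. Of the 377 lost sites with H3K27ac in tet-YAP, 353 had it in tet-Myc/YAP (93.6%), against 570 of 575 kept sites (99.1%). At most lost sites the acetylated region was thus still called, though at a lower share than at kept sites. Within 2 kb of the summit, H3K27ac regions covered a mean of 80.1% of bases at distal lost sites with tet-YAP and 79.1% with tet-Myc/YAP, and 95.1% and 94.4% at distal kept sites.

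H3K4me3 differed more between the genotypes. It overlapped 44.6% of lost sites in wild-type liver, 36.6% with tet-Myc, 38.4% with tet-YAP and 38.2% with tet-Myc/YAP. The shares were 45.6%, 41.3%, 40.7% and 46.4% over all YAP peaks of tet-YAP, and 70.5%, 66.4%, 63.8% and 75.3% at kept sites. Kept sites thus had their highest share in tet-Myc/YAP and lost sites theirs in wild-type, whose H3K4me3 list was part of the rule. Of the 194 promoter-like lost sites, 157 still overlapped H3K4me3 in tet-Myc/YAP (80.9%), against 395 of 411 kept ones (96.1%), a difference of 15.2 points (9.74 to 21.5). In tet-YAP, with YAP at both sets, the difference was 3.81 points (−1.89 to 10.3). In tet-Myc, in which YAP was not induced, it was 10.6 points (4.75 to 17.1), with H3K4me3 at 80.9% of lost and 91.5% of kept sites.

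Distal sites were without H3K4me3 in wild-type by definition, and few lost ones acquired it. In tet-Myc/YAP it was called at 9 of 241 distal lost sites (3.73%) and 44 of 172 distal kept sites (25.6%), a difference of 21.8 points (15.1 to 29.1). In tet-Myc these shares were 0.83% and 6.4%, and in tet-YAP 1.66% and 6.4%. The mean share of bases within 2 kb covered by H3K4me3 was 2.42% with tet-YAP and 3.85% with tet-Myc/YAP at distal lost sites, and 5.07% and 14.5% at distal kept sites. Around promoter-like lost sites it was 64.4% with tet-YAP and 56.1% with tet-Myc/YAP, and 55.9% in tet-Myc. Around promoter-like kept sites it was 70.8%, 72% and 66.4% in the same order.

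**Figure D4:**
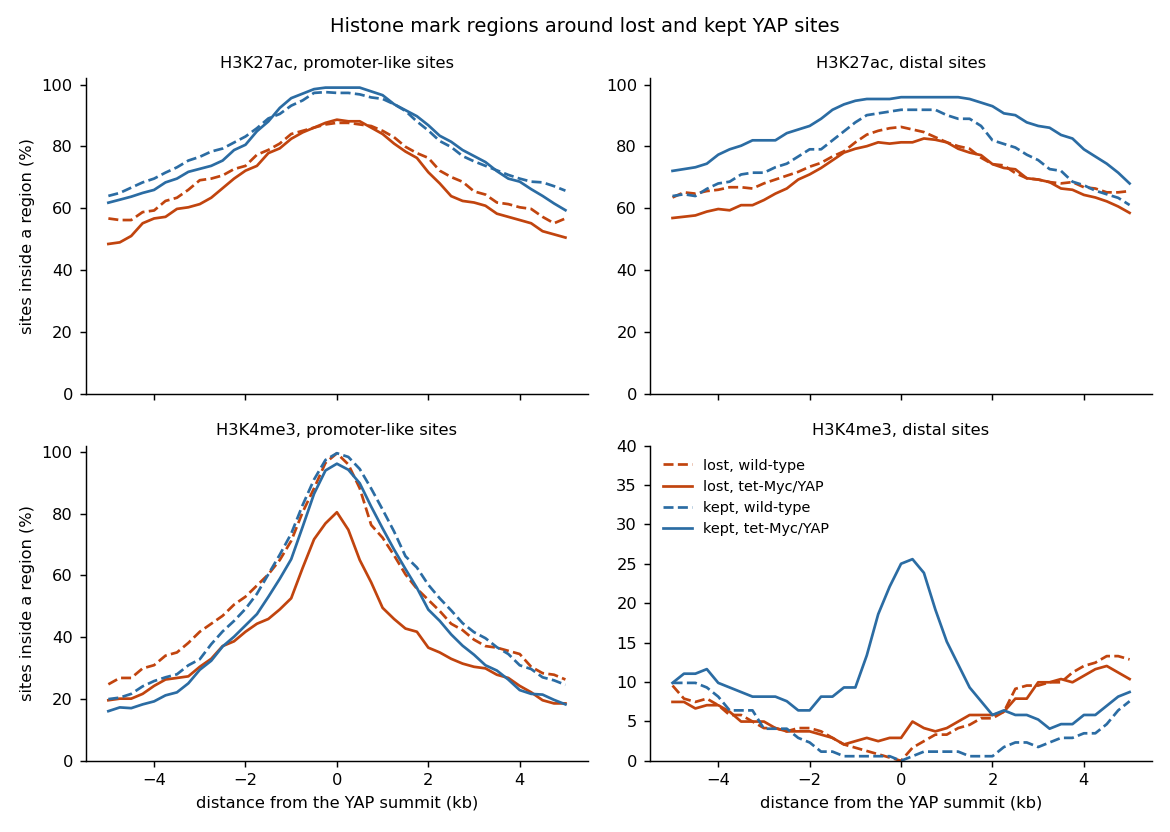
Share of lost (red) and kept (blue) YAP sites lying inside an H3K27ac (above) or H3K4me3 (below) region, by distance from the YAP summit in kb, in wild-type (dashed) and tet-Myc/YAP (solid). Promoter-like sites are on the left and distal sites on the right, and the vertical axis of the lower right panel ends at 40%. At the summit of distal sites, H3K4me3 of tet-Myc/YAP covered 2.9% of lost and 25% of kept sites.

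Lost promoter-like sites also lay nearer to the edge of their wild-type H3K4me3 region. The median distance from summit to nearest edge was 1008 bp at lost and 1280 bp at kept sites, in regions of similar width (medians 5467 and 5301 bp). As a share of region width it was 21.6% and 28.3%. In the outer 10% at either edge lay 36 lost sites (18.6%, interval 13.7 to 24.6%) and 33 kept sites (8.03%, 5.77 to 11.1%).

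Many lost sites had YAP elsewhere in the same marked region. A tet-Myc/YAP YAP peak lay in at least 1 of the wild-type regions that held the site for 229 of the 435 (52.6%, interval 47.9 to 57.3%), for 112 of 194 promoter-like sites (57.7%) and for 117 of 241 distal sites (48.5%). Of the wild-type H3K4me3 regions with a lost site, 47% held such a peak (85 of 181), against 40.1% of all wild-type H3K4me3 regions. For H3K27ac the shares were 56.2% and 44.3%, and for H3K4me1 61.1% and 38.2%. The regions with a lost site were wider, at medians of 5.44 against 3.36 kb, 19 against 8.15 kb and 17.1 against 6.17 kb, and so had more room for a peak. The part of width in these shares was not tested.

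The distance from a lost site to the nearest tet-Myc/YAP YAP peak had a median of 16.6 kb. It was at most 1 kb at 71 sites (16.3%), at most 10 kb at 176 (40.5%) and at most 100 kb at 369 (84.8%). Promoter-like sites were nearer, at a median of 9.18 kb with 25.8% within 1 kb, and distal sites farther, at 21.7 kb with 8.71% within 1 kb. A tet-Myc/YAP YAP peak within 1 kb was thus found at a minority of lost sites, and more often at promoter-like than at distal ones.

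**Figure D5:**
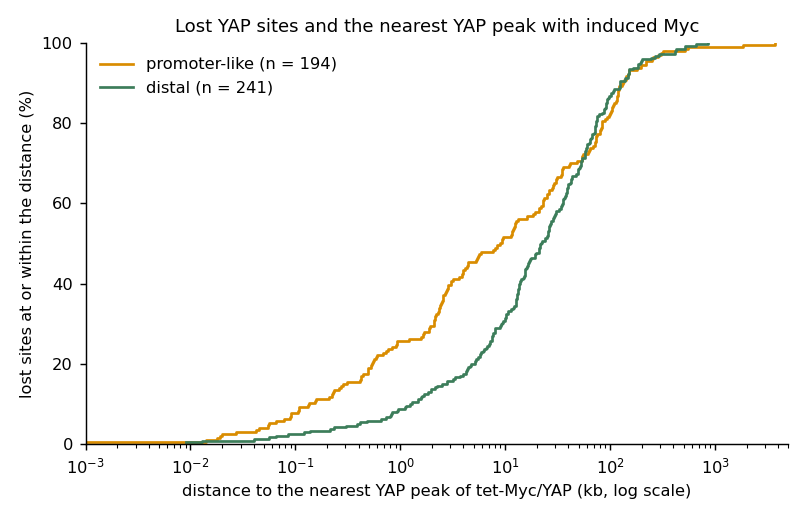
Cumulative share of lost sites (vertical axis, percent) whose nearest tet-Myc/YAP YAP peak lay at or within a given distance (horizontal axis, kb, log scale), for promoter-like and distal sites. At 1 kb the curves stand at 25.8% and 8.71%, and at 100 kb at 82.5% and 86.7%.

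The lost sites were mostly single. In clusters of members at most 10 kb apart lay 70 of them (16.1%), in 34 clusters, and the most in 1 cluster was 3. Some also shared a peak of another factor: the 367 lost sites with TEAD in tet-Myc/YAP rested on 343 distinct TEAD peaks, and at 7 of these sites the TEAD peak also held a kept site. The 106 lost sites with Myc in that genotype rested on 99 Myc peaks.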

How the data were processed

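ChIP-seq of YAP, TEAD, Myc, RNA polymerase II, H3K4me3, H3K27ac and H3K4me1 was performed on mouse liver, in 24 samples of which 23 had a peak list used here. The sample titled as an input was not analysed here. Per the submitters' processing notes, the authors aligned reads with BWA 0.6.2 to mm9, handled them with SAMtools and used MACS2 2.0.9 to call peaks. For the 14 narrow lists this was done per library at a p-value cutoff of 1.00e-05, per the file headers. These deposited lists give the pileup signal, the fold enrichment as a ratio over control, and −log10 p and −log10 q. The 9 deposited broad lists hold regions with a score, which was not used, and the cutoffs behind them were not stated in the labels or methods. TEAD libraries had 31.6 to 33.1 M tags, Myc 16.9 to 29.7 M and RNA polymerase II 20.9 to 50.6 M.

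Peaks were compared by an overlap of at least 1 bp in Python 3.11.15 (pandas 2.3.3, numpy 2.4.6). The comparison was tested on 2000 simulated sites and recovered 500 of 500 planted overlaps. Where several peaks lay at a site, the one with the highest fold enrichment was taken, and its percentile within its list was used across libraries. Summit distances were instead taken to the nearest summit among all the peaks at the site. Wilson intervals came from scipy 1.17.1, Newcombe intervals from statsmodels 0.14.6, and figures from matplotlib 3.10.9.

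Named sites were the 5 promoter-like and 5 distal members with the highest −log10 q, the 5 with the highest tet-YAP TEAD and the 3 with the highest tet-Myc/YAP Myc enrichment, and the 3 nearest to either side of the rule. The members, classes and lists were chosen with earlier results of these data known. Alternatives changed the −log10 q minimum, the overlap, the peak width, the distance that counts as lost and the length of the lists.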

Additional observations from a re-analysis of the deposited data

How the results depend on the processing

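Of 43 alternative values for 8 results, 30 stayed within the counting interval (for the number of lost sites, within 1.5 times) and 13 moved. A change of direction was not scored, since each result was a single count, share or median. With every narrow list held to a −log10 q of at least 10, 56 lost sites were left, of which 33.9% were promoter-like, 78.6% had H3K27ac in tet-Myc/YAP and 32.1% had a YAP peak elsewhere in their region. Their median TEAD percentile was 86.3. With only the tet-YAP YAP peaks held to at least 5, there were 221 lost sites and 79.6% had TEAD. Where no tet-Myc/YAP YAP peak was allowed within 1 kb, the share with Myc was 19.2%, with RNA polymerase II 31.6%, promoter-like 39.6% and with YAP elsewhere in the region 43.4%. With the tet-Myc/YAP lists cut to the shortest of the 4 genotypes, TEAD was called at 76.6% of lost and 99% of kept sites, Myc at 3.45% and 23%, and RNA polymerase II at 32.2% and 81.8%. The last Myc value rests on the 4775 peaks of the wild-type list, a length far below that of the Myc-induced lists.

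No paired analysis was possible because each group was 1 library and no test was run, and no replicate was left out for the same reason. Depth, the control and the fragment size differed between the YAP libraries, and their reads were not used here. The depth of the histone libraries is unknown.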

Other observations

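The wild-type Myc library was the other one with a short estimated fragment, 51 bp, against 56 bp for YAP in tet-YAP. At the 14 lost sites with a wild-type Myc peak, the Myc summit lay a median of 14 bp from the YAP summit, against 51 bp at the 45 kept sites. Of these 14, 8 had a Myc peak in tet-Myc/YAP (57.1%), against 44 of 45 kept sites (97.8%). In the other 3 Myc libraries the median summit distance was 122 to 204 bp at lost sites and 180 to 187 bp at kept sites. Wild-type Myc peaks had a median width of 81 bp, against 530 to 749 bp in those libraries. YAP calls were also narrower at lost than at kept sites, at medians of 81 and 120 bp. The part of the short fragments and of peak width in these distances was not tested.

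TEAD appeared at some lost sites that had none in tet-YAP. Of the 80 lost sites without a tet-YAP TEAD peak, 29 had one in tet-Myc/YAP (36.2%), whose list was longer (52392 against 32486 peaks). In the other direction, 17 of 355 were not found again.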
